A study of Homo sapiens with 4 samples.

Results

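The DNAJ genes, also called HSP40 genes, were examined in MCF10A cells, a non-tumorigenic line of human breast epithelium, with and without overexpression of the heat shock transcription factor HSF1. Members were taken by name, as the genes whose symbol in the authors' summary table begins with DNAJA, DNAJB or DNAJC and a number, after pseudogenes, antisense and divergent transcripts were set aside. This gave 45 of the 63856 genes in the count table, of which 4 belong to class A, 12 to class B and 29 to class C. In total 36 of the 45 held enough counts to be tested and 9 did not.

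The study describes its wild type cells as unmodified. The HSF1-pLVX cells had been transduced with a lentivirus made from the pLVX-Puro plasmid with the human HSF1 coding sequence and selected with puromycin. Both variants were grown in the same medium with horse serum, insulin, hydrocortisone, EGF and cholera toxin, no label names a heat shock, and each variant gave 2 libraries of ribosome-depleted total RNA. None of the 4 libraries is of cells with the empty vector. The vector, its selection and the separate culture of the HSF1-pLVX cells therefore cannot be told apart from HSF1 itself. The labels do not say whether the transduced cells are a clone.

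DNAJ proteins are co-chaperones of HSP70. Each carries a J domain, which stimulates the ATPase of HSP70 and so makes it close on a client protein, and many members bind the client first and hand it over. Class A proteins keep the domain order of bacterial DnaJ with its zinc-binding repeat, class B proteins have a stretch rich in glycine and phenylalanine but no zinc-binding repeat, and class C proteins share little beyond the J domain, which in many of them ties HSP70 to a particular place or task. HSF1 drives heat shock genes through repeats of the pentamer nGAAn in their promoters, and DNAJB1 is a textbook target.

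The RefSeq start sites of 41 members (53 windows of 300 bases, from 250 before to 50 after the start, GRCh38.p14) were searched for this element. Pentamers facing each other (GAANNTTC, which reads the same on both strands) were present in 7 of the 53 windows, or 13.2%, against 2377 of 35116 windows of all genes, or 6.77%. The 7 windows belong to 6 genes, DNAJA1, DNAJA4, DNAJB1 (with 2 windows), DNAJB6, DNAJB7 and DNAJC6. Of these, DNAJA4 and DNAJB7 had too few counts to be tested. Such a pair with another pentamer in line (GAANNTTCNNGAA or TTCNNGAANNTTC, each the reverse complement of the other, and each containing the shorter match) was present in 2 member windows, those of DNAJA1 and DNAJB6, or 3.77%, against 172 windows of all genes, or 0.49%. Median GC content was 65% in the member windows and 58.7% in all windows. The windows printed here are those of the class A and B genes with the element whose levels carry the results (DNAJA1, DNAJB1, DNAJB6) and of the genes that fell most (DNAJB4, DNAJC6). They run 5′ to 3′ on the strand of the gene, with matches in capitals.
DNAJA1, chr9:33025023-33025322, plus strand: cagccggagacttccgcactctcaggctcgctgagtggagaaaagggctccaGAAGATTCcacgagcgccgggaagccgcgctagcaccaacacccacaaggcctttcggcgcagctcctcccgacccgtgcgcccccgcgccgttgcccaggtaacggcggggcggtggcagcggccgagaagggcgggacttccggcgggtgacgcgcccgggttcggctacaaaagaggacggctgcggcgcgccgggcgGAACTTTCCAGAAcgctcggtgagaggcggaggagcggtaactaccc
DNAJB1, chr19:14518348-14518647, minus strand: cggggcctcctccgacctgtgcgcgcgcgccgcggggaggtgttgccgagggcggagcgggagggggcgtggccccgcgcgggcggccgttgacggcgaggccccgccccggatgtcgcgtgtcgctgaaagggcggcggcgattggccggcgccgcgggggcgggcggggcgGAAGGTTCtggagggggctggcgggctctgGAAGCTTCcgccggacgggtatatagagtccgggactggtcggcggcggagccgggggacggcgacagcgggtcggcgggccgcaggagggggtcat
DNAJB6, chr7:157336754-157337053, plus strand: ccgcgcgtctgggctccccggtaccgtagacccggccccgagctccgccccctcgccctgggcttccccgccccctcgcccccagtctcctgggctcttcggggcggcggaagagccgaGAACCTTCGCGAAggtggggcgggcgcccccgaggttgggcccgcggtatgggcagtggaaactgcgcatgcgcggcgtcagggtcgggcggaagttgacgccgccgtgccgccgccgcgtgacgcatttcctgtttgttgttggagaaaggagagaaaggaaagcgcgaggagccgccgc
DNAJB4, chr1:77978925-77979224, plus strand: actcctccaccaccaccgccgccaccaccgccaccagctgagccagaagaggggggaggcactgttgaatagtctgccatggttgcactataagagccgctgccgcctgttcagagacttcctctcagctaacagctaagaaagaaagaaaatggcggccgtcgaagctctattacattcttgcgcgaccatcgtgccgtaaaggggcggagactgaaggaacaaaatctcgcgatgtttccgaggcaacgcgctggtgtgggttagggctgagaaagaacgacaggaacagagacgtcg
DNAJC6, chr1:65309293-65309592, plus strand: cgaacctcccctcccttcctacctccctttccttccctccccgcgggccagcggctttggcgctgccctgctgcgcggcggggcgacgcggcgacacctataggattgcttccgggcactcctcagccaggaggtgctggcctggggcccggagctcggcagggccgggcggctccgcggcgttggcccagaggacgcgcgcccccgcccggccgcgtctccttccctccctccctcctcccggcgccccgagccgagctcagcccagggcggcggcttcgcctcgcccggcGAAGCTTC
The match of DNAJA1 that holds 3 pentamers begins 4 bases after the start, and that of DNAJB6 begins 131 bases before it. DNAJB1 has matches 77 and 47 bases before the start, and another start site further into the gene, not printed, has a match as well. The match of DNAJC6 lies at the end of its window, 43 bases after the start. The printed starts of DNAJA1, DNAJB1, DNAJB6 and DNAJC6 lie inside the counted genes and not at their outer ends. DNAJB4 has no match, which says only that these letters are not in its window. Counts per gene do not separate start sites, and a match is a description of the sequence and not a measured binding site.

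In the libraries, HSF1 itself was at 200.4 and 189.2 CPM (counts scaled to a TMM-adjusted library of 1000000) in wild type cells and at 982.4 and 998.6 CPM in HSF1-pLVX cells, a log2 fold change of 2.35 (SE 0.0999, adjusted p = 1.15e-10, Benjamini-Hochberg method, edgeR's quasi-likelihood test). Library totals were between 18688109 and 24184285 counts, and 33 of the 36 tested members had at least 100 counts in every library. Between the libraries of a variant, the log2 values of the tested members differed with an SD of 0.233 for the wild type pair and 0.121 for the HSF1-pLVX pair. The 8 markers of mammary epithelium were detected in every library, and 5 were lower and 3 higher in HSF1-pLVX cells. Their summed level was 12960 and 12930 CPM in wild type and 7135 and 7679 CPM in HSF1-pLVX cells, with KRT17 alone going from a mean of 7194 to one of 1220 CPM. The markers that rose were KRT5, TP63 and ITGA6, with log2 fold changes of 1.12, 3.48 and 0.44. Of 8 fibroblast markers 3 were detected (summed level 7.88 and 10.9 against 15.0 and 13.9 CPM), with COL1A2, COL3A1, LUM and THY1 at 3 counts or fewer in every library. Among the detected fibroblast markers, DCN rose from 1 and 3 counts to 94 and 87 (adjusted p = 1.12e-07), while COL1A1 had a log2 fold change of 0.19 that did not pass. PDGFRB held 2 and 0 counts in wild type and 10 and 5 in HSF1-pLVX libraries and was not tested. A marker was taken as detected when a library held at least 10 counts of it. Of 6 blood and endothelial markers 1 was detected, and their sum was between 0.836 and 1.51 CPM. The epithelial markers and DCN moved with the variant, and their part in the DNAJ results was not tested. In such bulk libraries, fewer cells with a transcript and less of it per cell cannot be told apart.

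At an adjusted p of 0.05 in edgeR's quasi-likelihood test, 7 tested members were higher and 17 were lower in HSF1-pLVX cells, and 12 did not pass. Among all 15830 genes tested, 32.7% were higher and 33.2% were lower, or 65.9% in either direction, so the number of members called, 24 of 36, was near the background, while more of them were lower (47.2%) than higher (19.4%). Past a 2-fold change, 1 member was higher and 4 were lower, against 14.9% and 14.0% of all genes. Both HSF1-pLVX libraries lay above both wild type libraries for 11 members and below them for 20, which was so for 42.1% and 41.0% of all genes. The median log2 fold change of the members was -0.15, beside 0.02 over all genes tested. Without HSF1-pLVX replicate 2, when the spread comes from the wild type libraries alone, 4 members were higher and 10 were lower, and the shares of all genes called were lower as well, 22.8% higher and 23.2% lower.

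**Figure D1:**
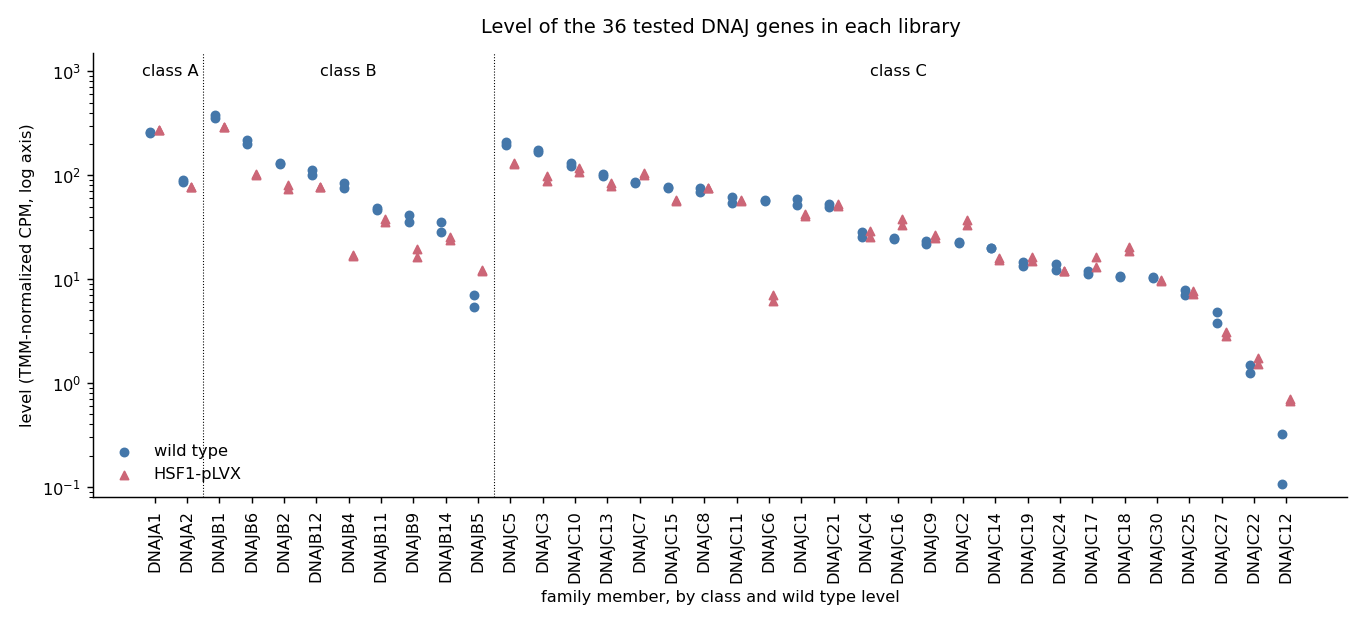
Level of the 36 tested members in each of the 4 libraries, in TMM-normalized CPM on a log axis, ordered by class and by wild type level. Circles are wild type and triangles HSF1-pLVX libraries. The triangles of DNAJB4 and DNAJC6 lie far below the circles, and in class B only DNAJB5 has its triangles above its circles.

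The classes differed in how their members were called. Of all genes tested, 32.7% were higher and 33.2% were lower. In class B, 8 of 9 tested members were lower, 1 was higher, and the median log2 fold change was -0.46. In class C, 8 of 25 tested members were lower, 6 were higher and 11 did not pass, and the median was -0.01, a value that became 0.08 with upper-quartile scaling. In class A, 1 of 2 tested members was lower and the median was -0.06, which became 0.02 with upper-quartile scaling. That scaling also moved the median over all genes tested, from 0.02 to 0.10. No test of the difference between the classes was made. Summed over all its genes, class A was at 349 and 348.5 CPM in wild type and at 350.2 and 351.6 CPM in HSF1-pLVX cells. Class B was at 1008 and 1022 CPM in wild type and at 653.3 and 653.6 CPM in HSF1-pLVX cells, a ratio of 0.644. Class C was at 1259 and 1235 CPM and at 1039 and 1029 CPM, a ratio of 0.829. The class A sum is in effect that of DNAJA1 and DNAJA2, since DNAJA3 and DNAJC28 stand near or at 0 in these sums and are not readable, as described with the untested genes. In it DNAJA1 was 13.1 CPM higher, a difference that did not pass, while DNAJA2 fell by 11.2 CPM, so the sum differed little. Of the 3 sums, that of class B fell furthest. DNAJB6 made up 29.7% of the difference in the class B sum, DNAJB1 21.2%, DNAJB4 17.5% and DNAJB2 14.6%. In class C, DNAJC3, DNAJC5 and DNAJC6 made up 36.7, 33.7 and 23.8% of the difference.

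**Figure D2:**
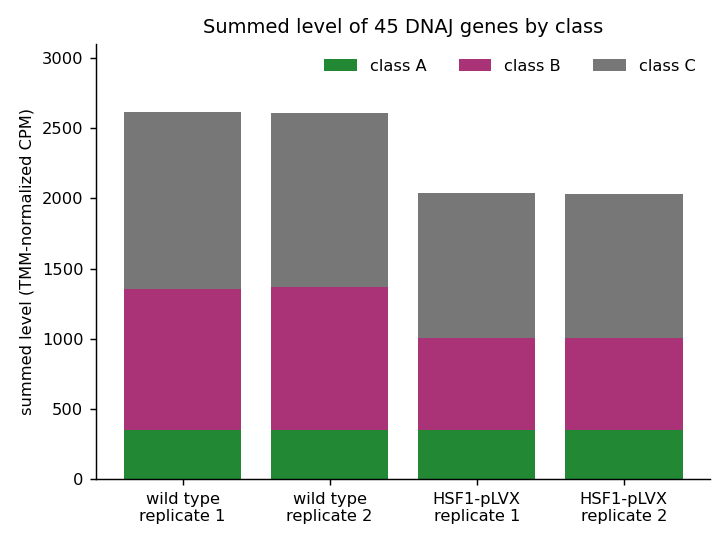
Summed level of the 45 DNAJ genes in each library, in TMM-normalized CPM, stacked by class. The class A part, in effect DNAJA1 and DNAJA2, is between 348.5 and 351.6 CPM in all 4 libraries, while the class B part is 1008 and 1022 CPM in wild type and 653.3 and 653.6 CPM in HSF1-pLVX cells.

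Class A and B genes of the cytosol and nucleus are the general partners of HSP70 in protein folding. Of 8 tested genes in this group, which also takes in DNAJC7, 5 were lower, 2 were higher and DNAJA1 did not pass. The shares were 62.5% lower and 25% higher, beside 33.2% and 32.7% of all genes. DNAJA1 (chromosome 9, 33025211 to 33039907, hg38), a farnesylated class A protein that works with HSPA8, was at 263 and 257.6 CPM in wild type and at 272.7 and 274 CPM in HSF1-pLVX cells. The groups did not overlap but lay close, with a log2 fold change of 0.07 (SE 0.0878, adjusted p = 0.495). DNAJB1 (chromosome 19, 14514770 to 14529770), the main heat-inducible member, was at 378 and 355.2 CPM in wild type and at 288.1 and 291.8 CPM in HSF1-pLVX cells. Both HSF1-pLVX libraries were lower, with a log2 fold change of -0.34 (SE 0.0907, adjusted p = 0.00448). Without HSF1-pLVX replicate 2 this was -0.34 with an adjusted p of 0.0734, and DNAJB1 was no longer called. The ratio of DNAJA1 to DNAJB1 counts was 0.696 and 0.725 in the wild type and 0.947 and 0.939 in the HSF1-pLVX libraries. Per kilobase of exon, DNAJB1 came first among all members in wild type, at 99.8 CPM per kb, and DNAJA1 was next at 95.4. In HSF1-pLVX cells DNAJA1 was first at 100.1 CPM per kb and DNAJB1 next at 79.0. Both genes hold the pentamer pairs printed above.

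DNAJB4 (chromosome 1, 77979175 to 78017964), a close relative of DNAJB1, was at 74.7 and 85.1 CPM in wild type and at 16.7 and 16.9 CPM in HSF1-pLVX cells. This was a 4.76-fold fall, with a log2 fold change of -2.25 (SE 0.0974, adjusted p = 1.37e-10), and per kilobase the gene went from rank 8 to rank 22 of the family. DNAJB5 (chromosome 9, 34989641 to 34998900), another relative of DNAJB1 in class B, went the other way and was the tested class B member that rose. It was at 7.09 and 5.38 CPM in wild type and at 12.0 and 12.2 CPM in HSF1-pLVX cells, a log2 fold change of 0.95 (SE 0.154, adjusted p = 8.07e-05). The ratio of DNAJB5 to DNAJB4 counts was 0.0948 and 0.0633 in the wild type libraries and 0.720 and 0.720 in the HSF1-pLVX libraries, 9.11 times as high on average. Among the 5 other genes tested within 250 kb of DNAJB4, 1 was higher and 2 were lower, beside 32.7% and 33.2% of all genes. NEXN, an actin-binding protein gene, fell by 4.38 on the log2 scale, further than DNAJB4, and MIGA1 fell by 0.89.

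DNAJB6 (chromosome 7, 157335381 to 157417439), which keeps polyglutamine and other amyloid-forming proteins from aggregating, was at 197.6 and 219.1 CPM in wild type and at 102.6 and 99.7 CPM in HSF1-pLVX cells. The log2 fold change was -1.04 (SE 0.0906, adjusted p = 1.58e-07), so the level in HSF1-pLVX cells was 2.06-fold lower. Without wild type replicate 2 its log2 fold change was -0.98, and with upper-quartile scaling -0.96, under 2-fold but still called. Its window holds the longer element. A processed pseudogene, DNAJB6P1 on chromosome 11, held 247 and 204 counts in wild type and 153 and 136 in HSF1-pLVX libraries, and the counting could split reads between the copies. DNAJB2 (chromosome 2, 219279267 to 219286900), which carries ubiquitin-binding motifs and takes clients to the proteasome, was at 127.9 and 132 CPM in wild type and at 79.9 and 74.3 CPM in HSF1-pLVX cells. Its log2 fold change was -0.75 (SE 0.0855, adjusted p = 2.54e-06). DNAJC7 (chromosome 17, 41976433 to 42021376), a TPR protein that binds both HSP70 and HSP90, was at 85.7 and 84.6 CPM in wild type and at 99.5 and 105.7 CPM in HSF1-pLVX cells. It rose with a log2 fold change of 0.27 (SE 0.0835, adjusted p = 0.0110), which without HSF1-pLVX replicate 2 was 0.24 with an adjusted p of 0.102, and without wild type replicate 2 was 0.24 with an adjusted p of 0.0576. DNAJA2, the other cytosolic class A gene tested, had a log2 fold change of -0.19 at the very threshold (adjusted p = 0.0499), and it was not called when any of the 4 libraries was left out (adjusted p between 0.0780 and 0.174).

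**Figure D3:**
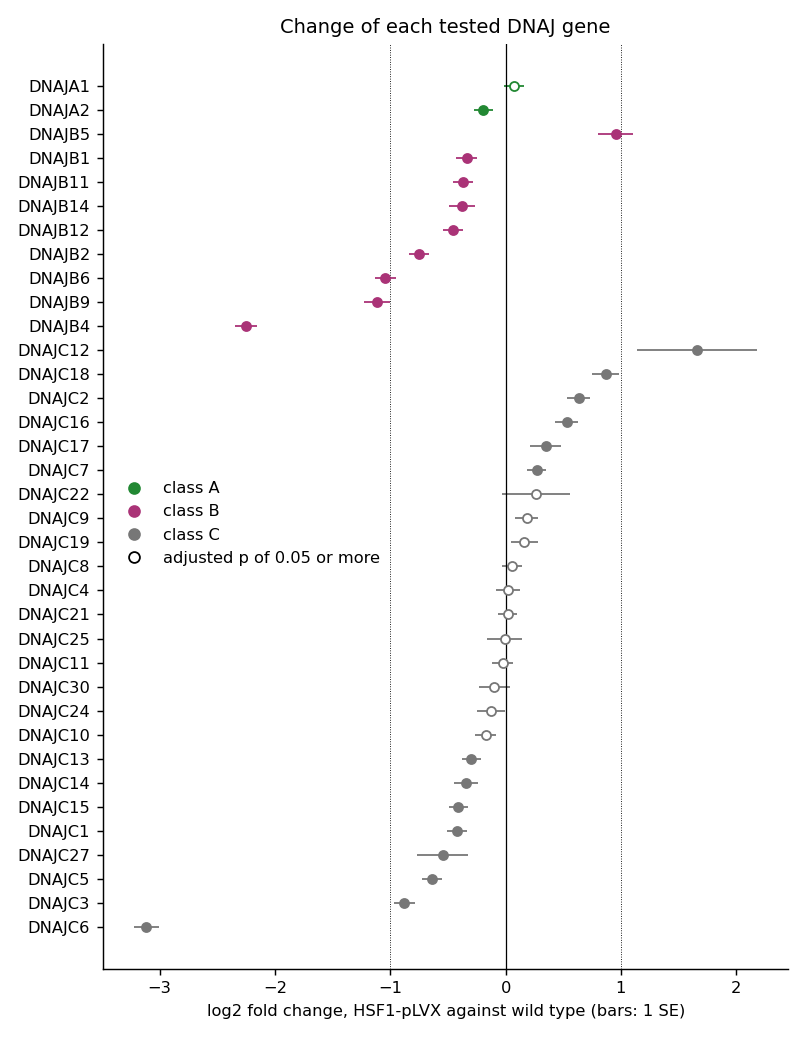
Log2 fold change of each tested member in HSF1-pLVX against wild type cells, with bars of 1 SE, coloured by class. Filled points passed an adjusted p of 0.05 and dotted lines mark a 2-fold change. DNAJC6 at -3.12 and DNAJB4 at -2.25 lie furthest to the left, and DNAJC12 at 1.66 has the widest bar.

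Some DNAJ proteins of the endoplasmic reticulum (ER) serve HSPA5, the HSP70 of that compartment. All 10 genes listed for the ER, whichever HSP70 they serve, were tested, and 6 were lower, 2 were higher and 2 did not pass. Beside 33.2% lower and 32.7% higher among all genes, the shares here were 60% and 20%. DNAJB9 (chromosome 7, 108569568 to 108574850), an ER-stress gene that recruits HSPA5 to IRE1, was at 35.2 and 41.7 CPM in wild type and at 16.2 and 19.4 CPM in HSF1-pLVX cells. It fell by 1.12 on the log2 scale (SE 0.116, adjusted p = 1.06e-06), past 2-fold, though the value without HSF1-pLVX replicate 1 was -0.98. DNAJC3, a lumenal protein also known as an inhibitor of PERK and PKR, fell by 0.88, and DNAJB12 and DNAJB14, membrane proteins of ER-associated degradation, fell by 0.46 and 0.38. DNAJC1, a ribosome-associated membrane protein, fell by 0.42, and DNAJB11, which binds unfolded clients in the lumen, fell by 0.37. The genes that rose were DNAJC18 (log2 fold change 0.87) and DNAJC16 (0.53), both membrane proteins. DNAJC10, an ER disulfide reductase, had a value of -0.17 and DNAJC25 a value of -0.01, neither past the test. Exons of other genes, among them TBCCD1, cover 23.2% of the exon bases of DNAJB11, and the readthrough gene DNAJC25-GNG10 covers 13.8% of those of DNAJC25. Without HSF1-pLVX replicate 2, DNAJB14 (adjusted p = 0.170) and DNAJC1 (adjusted p = 0.0501) were not called, and without wild type replicate 2 DNAJB14 was not called (adjusted p = 0.0917).

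Members of the vesicle cycle were all lower where they could be tested, 3 of 3 in a small group, beside 33.2% of all genes. DNAJC6 (chromosome 1, 65248219 to 65415869), auxilin, which brings HSPA8 to clathrin-coated vesicles to strip the coat, was at 57.0 and 58.0 CPM in wild type and at 7.05 and 6.14 CPM in HSF1-pLVX cells. No member fell further in these libraries, with a log2 fold change of -3.12 (SE 0.108, adjusted p = 2.12e-11), an 8.67-fold difference. Its relative GAK, the auxilin of most tissues, had a log2 fold change of -0.31 (adjusted p = 0.00363). Of the 3 other genes tested within 250 kb of DNAJC6, LEPROT and LEPR fell by 1.84 and 1.20 on the log2 scale and AK4 rose (0.89). Within the same distance of DNAJB6, 1 of 2 tested genes was higher and 1 was lower. For DNAJB9 this was 0 and 1 of 3 genes, and for DNAJC12 it was 1 and 1 of 4. Among all genes tested, 32.7% were higher and 33.2% were lower. DNAJC5 (chromosome 20, 63895182 to 63936031), the cysteine string protein of secretory vesicles and the class C gene with the highest level per kilobase in wild type, was at 209 and 194.9 CPM in wild type and at 128.9 and 130.9 CPM in HSF1-pLVX cells. Its log2 fold change was -0.64 (SE 0.0875, adjusted p = 1.71e-05). Per kilobase it went from 38.2 to 24.6 CPM, while DNAJC8 was at 25.2 and 26.2. DNAJC13, an endosomal protein, fell by 0.30, and without HSF1-pLVX replicate 2 it was not called (adjusted p = 0.116).

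In the nucleus and on the ribosome, 2 of 5 tested members were higher, 0 were lower and 3 did not pass, a share of 40% higher in a small group beside the 32.7% of all genes. DNAJC2, the J protein of the ribosome-associated complex that serves nascent chains, had a log2 fold change of 0.63 (SE 0.0983, adjusted p = 5.38e-05). DNAJC17, a splicing-related protein, had one of 0.35, which was not called without wild type replicate 1 (adjusted p = 0.0675) or without HSF1-pLVX replicate 2 (adjusted p = 0.242), and GCHFR, C15orf62 and ZFYVE19 cover 26.1% of its exon bases. In DESeq2's Wald test on all 4 libraries DNAJC17 was not called either (adjusted p = 0.138). The histone chaperone DNAJC9 had a log2 fold change of 0.18, the splicing-associated DNAJC8 one of 0.06 and the ribosome biogenesis factor DNAJC21 one of 0.02. None of these passed edgeR's test. Exons of FAM149B1, MRPS16 and DNAJC9-AS1 cover 29.1% of the exon bases of DNAJC9. In mitochondria, 1 of 4 tested members was called, or 25%, beside 65.9% of all genes called in either direction. DNAJC15, a partner of the import motor of the inner membrane, fell by 0.41 (adjusted p = 0.000486), while DNAJC19, its relative at the same motor, had a value of 0.16 and DNAJC11 and DNAJC30 values of -0.02 and -0.10 that did not pass. Exons of THAP3 cover 27.9% of the exon bases of DNAJC11, and WBSCR22 covers 14.4% of those of DNAJC30.

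Of the members outside these groups, DNAJC12 (chromosome 10, 67796665 to 67838166), which assists the aromatic amino acid hydroxylases, was the member that rose past 2-fold, but on few reads. It held 2 and 6 counts in wild type and 17 and 14 in HSF1-pLVX libraries, a log2 fold change of 1.66 (SE 0.524, adjusted p = 0.0121). It was not called without wild type replicate 1 (log2 fold change 1.10, adjusted p = 0.166), while leaving out wild type replicate 2 moved this to 2.61 (adjusted p = 0.00870). Nor was it called without either HSF1-pLVX library (adjusted p = 0.0592 and 0.109). DNAJC27, which joins a J domain to a small GTPase, had a log2 fold change of -0.55 (SE 0.220, adjusted p = 0.0411), and was not called without wild type replicate 2 or without either HSF1-pLVX library (adjusted p between 0.0875 and 0.251). DNAJC14, an ER membrane protein that the list of ER members did not hold, had one of -0.34 (adjusted p = 0.0112), not called without HSF1-pLVX replicate 2 (adjusted p = 0.0878), and exons of other genes, among them ORMDL2 and TMEM198B, cover 58.1% of its exon bases. DNAJC4, DNAJC22 and DNAJC24, the last of these an enzyme of diphthamide synthesis, had values of 0.02, 0.26 and -0.12 and did not pass. Other genes, NUDT22 among them, cover 13.9% of the exon bases of DNAJC4. In DESeq2's Wald test on all 4 libraries, DNAJC12, DNAJC27 and DNAJC14 were not called (adjusted p = 0.134, 0.146 and 0.0594). In edgeR's test DNAJC27 was not called with library size alone or upper-quartile scaling either (adjusted p = 0.0822 and 0.0796).

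The 9 members that could not be tested held at most 7 counts in a library, and 5 of them held 0 counts in all 4 libraries. A count of 0 allows a level of up to 0.119 to 0.161 CPM, depending on the library, for counting error alone. DNAJB7, DNAJB8 and DNAJB13, which are known from testis and cilia, were among them, as were DNAJA4, DNAJC5B and DNAJC5G. The readthrough gene DNAJC25-GNG10 shares 100% of its exon bases with DNAJC25 and GNG10, so its count of 0 says nothing of its transcript. DNAJA3, a mitochondrial class A protein that works with HSPA9, stood at 0 and 0 counts in wild type and 2 and 0 in HSF1-pLVX libraries on chromosome 16 (4425805 to 4456775). The annotation holds a copy on the alternate contig KI270855.1 with the same 34 exon lengths, which had 2 and 4 counts in wild type and 4 and 3 in HSF1-pLVX libraries. Of its neighbours with a contig copy, VASN, CORO7, NMRAL1 and HMOX2 held at most 2 counts and GLIS2 between 6 and 28, while UBALD1 and MGRN1, further along and with no copy, held between 636 and 1882. The other genes with no copy in this window ranged from 0 to 613 counts. Over the whole table, 411 of 480 protein-coding genes with such a copy (85.6%) had fewer than 10 counts in every library, against 4684 of 16927 without a copy (27.7%). DNAJC28 has a copy on contig GL383581.2 as well, and both stood at 0. How reads that match more than 1 place were counted is not given in the sources used here, and the values of DNAJA3 and DNAJC28 are not taken as their levels.

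**Figure D4:**
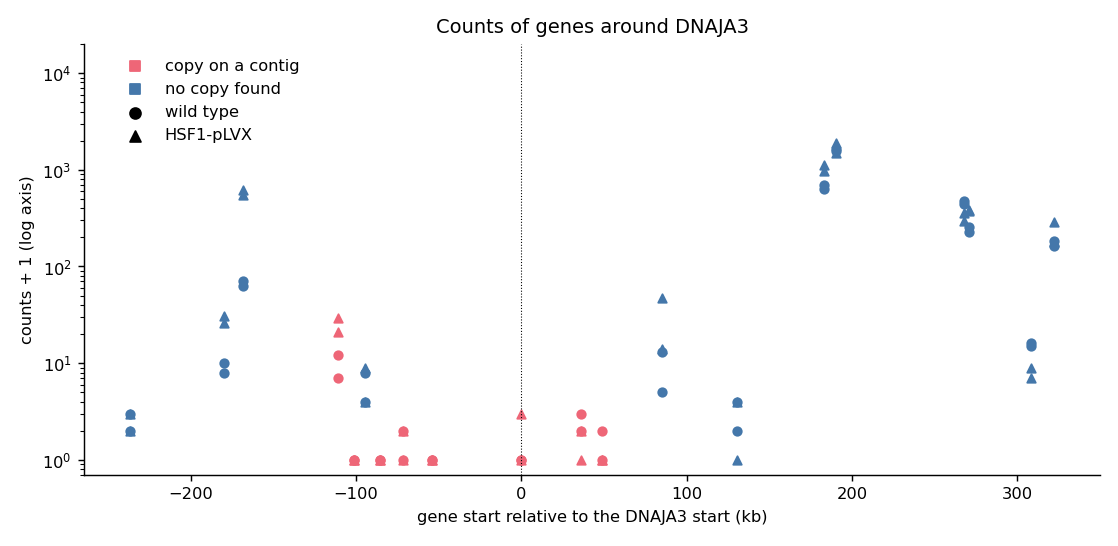
Counts plus 1, on a log axis, of the genes within 300 kb of DNAJA3, by the distance of their start from that of DNAJA3 in kb. Red marks genes with a copy on a contig and blue those without, circles are wild type and triangles HSF1-pLVX libraries. The red genes lie at 28 counts or fewer and DNAJA3, at 0 kb, at 2 or fewer.

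The partners of the family were counted in the same test, in which 32.7% of all genes were higher and 33.2% lower. Of 11 tested HSP70 and HSP110 genes, 6 were higher and 1 was lower, with HSPA12A, HSPA4L and the mitochondrial HSPA9 past 2-fold (log2 fold changes of 1.69, 1.22 and 1.06). HSPA8, the constitutive HSP70 of the cytosol, was at 2153 and 1935 CPM in wild type and at 1864 and 1875 CPM in HSF1-pLVX cells, a log2 fold change of -0.13 that did not pass (adjusted p = 0.309). The gene of this list that fell was HSPA5, from 1166 and 1055 CPM to 661.2 and 671.5 CPM, a log2 fold change of -0.74 (adjusted p = 1.71e-05). HSPA1A and HSPA1B stood at 0 counts in every library. They are near-identical to each other and HSPA1A has a contig copy, so no level is given for them. HYOU1, which has a contig copy as well, held 1 and 1 counts in wild type and 0 and 0 in HSF1-pLVX libraries. Its level is not read either. Of 9 nucleotide exchange factors, which release ADP from HSP70, 2 were higher (22.2%) and 3 were lower (33.3%), near or under the shares of all genes. Among them BAG2 was past 2-fold (1.53). Of 4 J proteins with other names, HSCB and SEC63 were higher (0.76 and 0.22), GAK was lower and 1 did not pass, and with each of the 4 libraries left out in turn 1 was higher and between 0 and 2 were lower (2 without HSF1-pLVX replicate 1 and 0 without HSF1-pLVX replicate 2).

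Among textbook targets of HSF1, DNAJB1 was called in the direction opposite to most. The shares of all genes to set beside these lists were 32.7% higher and 33.2% lower. That list held 17 genes, of which 15 were tested, and HSPA1A and HSPA1B could not be read, as described above. Of its 14 other tested genes, 10 were higher, 1 was lower and 3 did not pass, with a median log2 fold change of 0.67. HSPD1, HSPE1 and SERPINH1 were past 2-fold (1.84, 1.23 and 1.06). DNAJB1 and HSP90AA1 were the genes of the list that fell, by 0.34 and 0.65. Among textbook targets of the unfolded protein response of the ER, the 3 DNAJ genes of the list, DNAJB9, DNAJB11 and DNAJC3, were all lower. This list held 14 genes, of which 13 were tested, and HYOU1 could not be read, as described above. Of its 10 other tested genes, 3 were higher, 6 were lower and 1 did not pass, with a median of -0.31. Among these, TRIB3 was the gene past 2-fold (1.21).

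**Figure D5:**
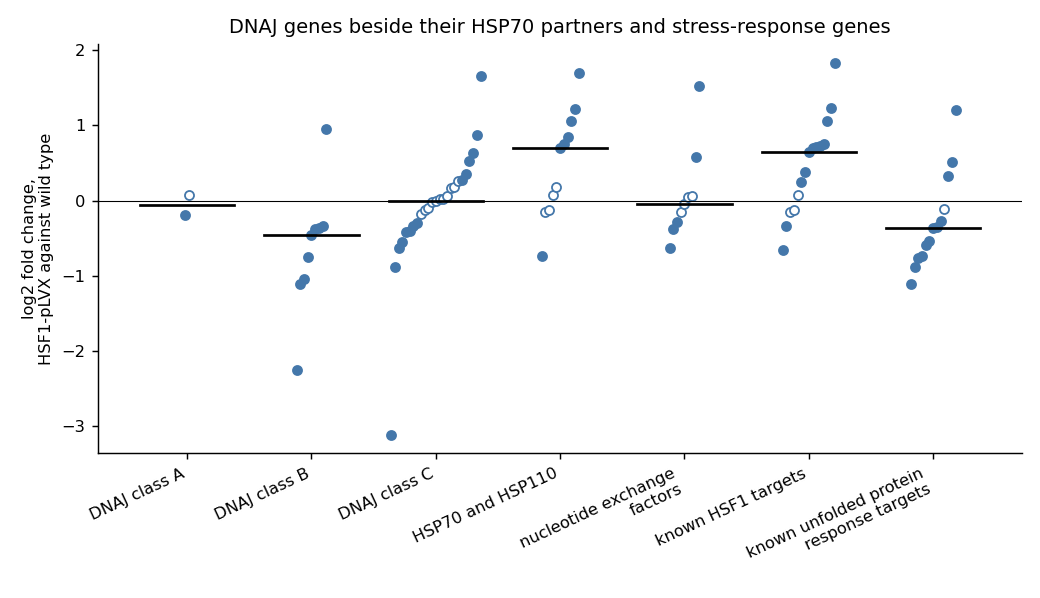
Log2 fold change in HSF1-pLVX against wild type cells of each tested gene in the 3 DNAJ classes and in 4 lists of partner and stress-response genes. Filled points passed an adjusted p of 0.05, horizontal bars are medians, and the lists of HSF1 and unfolded protein response targets include their DNAJ members. The bar lies at -0.46 for class B, at 0.70 for HSP70 and HSP110 genes and at 0.65 for HSF1 targets.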

How the data were processed

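Of MCF10A cells, 2 wild type and 2 HSF1-pLVX libraries were sequenced, and the labels give the variant and replicate number of each. The authors had mapped the reads to hg38 using HISAT2 (2.0.5), handled the alignments with SAMtools (1.13) and counted per gene with featureCounts (1.6.5). The authors deposited these raw counts for 63856 genes of GENCODE release 26 with a summed exon length per gene. They also deposited log2-like values normalized with DESeq2 (1.32.0), which were used for gene names and not for tests. The 47 rows of those values with a member symbol were obtained from the counts by DESeq2's variance-stabilizing transformation to within 5.8e-05. How the counting treated strand, overlapping genes and reads matching several places is not given in the sources used here, so overlaps of over 10% of a tested member's exon bases are given beside its value. Identifiers were given symbols from GENCODE release 44 and RefSeq synonyms. Promoter windows are those of RefSeq.

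The variants were compared from the counts in R 4.3.3 using edgeR 4.0.16 (filterByExpr defaults, TMM, glmQLFit and glmQLFTest with no block, Benjamini-Hochberg adjustment over 15830 genes, threshold 0.05). The study calls the replicates biological, and neither it nor the labels say whether they came from separate cultures, so p-values measure the spread between these libraries. Replicates of a variant differed by more than sampling noise (chi-square per degree of freedom 6.62 and 8.04), the common biological coefficient of variation was 0.0738, and an exact permutation of 2 against 2 libraries cannot give a p below 0.33. SEs are of the log2 fold change. Intervals and floors cover counting error only.

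Values in every library are given for members called past 2-fold, for DNAJA1, DNAJB1, DNAJB2, DNAJB4, DNAJB6 and DNAJC7, and for the member of each class with the highest level per length. DNAJB5, set beside DNAJB4, was added after its values were seen. So were the neighbours of the members past 2-fold and the copies and neighbours of DNAJA3. Members and lists were chosen with earlier results of these data known, and lists were described by counts and medians, with no set test. Alternatives were DESeq2 size factors, library size alone, upper-quartile scaling, no filter and a stricter filter, DESeq2's Wald test (1.42.0), limma voom (3.58.1), the replicate number as a block, a threshold of 0.01 and each library left out in turn. Western blots and other cell lines were not analysed here.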

Additional observations from a re-analysis of the deposited data

How the results depend on the processing

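Of the 24 called members, 14 were called in the same direction under every alternative run, 10 lost the call under at least 1, and 0 reversed. With 2 libraries a variant, the SEs of the members' log2 fold changes ran from 0.0816 to 0.524, and 33 of the 36 tested members had at least 100 counts in every library.

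The count of members past 2-fold higher was 1 and became 2 with library size alone or upper-quartile scaling, and 0 under the stricter filter, DESeq2's Wald test and the 0.01 threshold, and ranged from 0 to 1 with a library left out. Members called higher were 4 at 0.01 and between 4 and 6 with a library left out, and members called lower between 10 and 16, where 10 came without HSF1-pLVX replicate 2. In class C, 3 members were then higher and 4 lower, against 6 and 8, and the call in class A, DNAJA2, was lost in 9 settings. Median log2 fold changes were -0.0892 (all members), -0.0023 (class A) and -0.39 (class B) with library size alone and -0.0642, 0.0233 and -0.37 with upper-quartile scaling. Over all genes tested the median moved as well, from 0.0193 to 0.0799 with library size alone and 0.1045 with upper-quartile scaling. With a library left out, the medians lay between -0.20 and -0.12 for all members and between -0.56 and -0.44 for class B. Among J proteins with other names, 1 was higher without the filter, by DESeq2's Wald test, at 0.01, with the block and with each library left out (between 1 and 1), and between 0 and 2 were lower. Of HSF1 targets, between 1 and 2 were lower. Values near 0 that did not pass turned sign. DNAJC11 and DNAJC25 were at 0.0378 and 0.0512 with library size alone and at 0.0615 and 0.0765 with upper-quartile scaling, and DNAJC9 passed with the latter. With a library left out, DNAJC4 lay between -0.0732 and 0.12, DNAJC8 between -0.0273 and 0.14, DNAJC11 between -0.15 and 0.10, DNAJC21 between -0.0358 and 0.0672 and DNAJC25 between -0.0625 and 0.0451. The cause was not tested.

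With the replicate number as a block, DNAJA2 was not called (adjusted p = 0.0856), and no other member's call changed. Same-numbered deviations had a correlation of 0 over all genes tested and 0.04 over the members. With 2 libraries a variant, this cannot show whether same-numbered libraries shared a culture or a run. Crossing the block, an alternative added after seeing the data, changed no member's call.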
